A study of Mus musculus with 2 samples.

Results

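The Ly6 surface antigen family was followed as 7 mouse genes, Ly6a, Ly6c1, Ly6c2, Ly6e, Ly6i, Ly6g and Ly6d, found by their symbols among the 32285 genes of the deposited count tables. They were selected by name when their levels in these cells were already known, so their levels and the ratios between the libraries are descriptions and carry no test. Leukocytes were sorted with CD45 magnetic beads from tumors that the human osteosarcoma line 143B formed under the skin of female nude mice, 4 weeks old at the start. Nude mice lack a thymus and have few T cells, but keep NK cells, B cells and myeloid cells. One group received human IgG1 isotype control (control IgG) and the other a humanized IgG1 antibody to human CD3L1 (anti-CD3L1), each at 10 mg/kg every 3 days for 4 doses. Each group gave 1 droplet single-cell RNA library pooled from 3 tumors, the strain of the nude mice was not given in the sources used here, and no label ties a cell to a tumor. The spread between tumors therefore cannot be estimated, and a difference between the 2 libraries cannot be told apart from a difference between treatments.

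Ly6 proteins are small, cysteine-rich proteins that sit on the outer face of the cell membrane, most of them held by a glycosylphosphatidylinositol (GPI) anchor. In mouse blood they serve as identity marks: Ly6C, the product of Ly6c1 and Ly6c2, marks classical monocytes, Ly6G marks neutrophils, and Ly6A (Sca-1) marks blood stem cells and activated lymphocytes. Ly6d marks early B-lineage cells, and Ly6a and Ly6e are among the genes that interferons induce.

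All 7 genes lie within 397 kb of chromosome 15 in the GENCODE M21 annotation of GRCm38, and all 7 identifiers matched those of the count tables. Ly6d (ENSMUSG00000034634) spans chr15:74762056-74763620 on the minus strand, Ly6e (ENSMUSG00000022587) chr15:74955051-74959905 on the plus strand, and Ly6i (ENSMUSG00000022586) chr15:74979534-74983430 on the minus strand. Ly6a (ENSMUSG00000075602) spans chr15:74994877-74998031, Ly6c1 (ENSMUSG00000079018) chr15:75044018-75048830 and Ly6c2 (ENSMUSG00000022584) chr15:75108158-75111970, all on the minus strand. Ly6g (ENSMUSG00000022582) closes the group at chr15:75155240-75159126 on the plus strand. Ly6c1 and Ly6c2 are 59.3 kb apart. Counting itself was done on GRCm39 according to the submitters' processing notes, so these positions describe the reference annotation and not the alignment.

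Ly6c1 and Ly6c2 are the closest pair of the family, and their sequences are shown because their ratios between the libraries had opposite signs in all 4 classes compared. Each has a coding part of 393 bases, of which 384 are the same (97.7%). The first 300 coding bases from the start codon, 5′ to 3′ from GENCODE M21 (GRCm38), hold 7 of the 9 differing bases, which are in capitals:
Ly6c1: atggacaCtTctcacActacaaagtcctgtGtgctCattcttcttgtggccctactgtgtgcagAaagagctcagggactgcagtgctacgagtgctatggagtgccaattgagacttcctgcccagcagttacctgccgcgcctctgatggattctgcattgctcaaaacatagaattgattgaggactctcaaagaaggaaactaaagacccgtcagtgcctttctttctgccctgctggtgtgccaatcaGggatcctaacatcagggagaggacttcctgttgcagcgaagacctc
Ly6c2: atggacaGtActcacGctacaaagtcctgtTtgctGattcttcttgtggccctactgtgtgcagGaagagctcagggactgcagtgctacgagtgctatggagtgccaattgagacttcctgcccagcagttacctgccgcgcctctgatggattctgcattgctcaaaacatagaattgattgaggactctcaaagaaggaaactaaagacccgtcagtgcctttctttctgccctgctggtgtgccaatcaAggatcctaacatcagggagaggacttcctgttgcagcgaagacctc
Over the whole transcripts, 844 and 822 bases long, 95.1% of aligned bases were the same, and over the last 300 bases 93.8%. Of all stretches of 50 bases in the Ly6c1 transcript, 31.7% occurred letter for letter in Ly6c2, and of stretches of 90 bases 17.7%. A read from such a stretch cannot be given to one gene. Read length and the way shared reads were counted could not be found, so the error of the split is unknown. These percents do not measure it. Monocyte-like cells of the anti-CD3L1 library had 12 counts of Ly6c1 beside 24141 of Ly6c2, so at most 12 counts of Ly6c2 went to Ly6c1 there. Counting of Ly6c1 as Ly6c2 was not tested. The next closest coding parts were Ly6i and Ly6a (86.3%) and Ly6a and Ly6c1 (82.6%), and the most distant pair was Ly6e and Ly6c1 (51.4%).

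The 250 bases before the annotated start were available from RefSeq (GRCm38.p6) for 3 of the 7 members: Ly6c1 (chr15:75048838-75049087, minus strand), Ly6c2 (chr15:75111972-75112221, minus strand) and Ly6g (chr15:75155011-75155260, plus strand). They are shown because these 3 closely related genes had different patterns across cell classes and libraries. Capitals mark matches, on either strand, to GAGGAAGT, a motif of the ETS factor PU.1, and to TATAAAT, a box of core promoters, and the letters run 5′ to 3′ on the strand of the gene:
Ly6c1: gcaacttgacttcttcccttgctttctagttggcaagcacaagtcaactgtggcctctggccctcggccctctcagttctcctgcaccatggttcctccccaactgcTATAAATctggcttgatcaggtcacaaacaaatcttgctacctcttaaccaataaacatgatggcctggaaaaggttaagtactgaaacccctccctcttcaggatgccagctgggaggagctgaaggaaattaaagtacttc
Ly6c2: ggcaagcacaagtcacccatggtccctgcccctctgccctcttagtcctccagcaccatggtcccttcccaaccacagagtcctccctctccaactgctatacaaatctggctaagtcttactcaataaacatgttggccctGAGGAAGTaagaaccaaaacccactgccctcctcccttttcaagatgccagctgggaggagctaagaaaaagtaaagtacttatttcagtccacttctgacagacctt
Ly6g: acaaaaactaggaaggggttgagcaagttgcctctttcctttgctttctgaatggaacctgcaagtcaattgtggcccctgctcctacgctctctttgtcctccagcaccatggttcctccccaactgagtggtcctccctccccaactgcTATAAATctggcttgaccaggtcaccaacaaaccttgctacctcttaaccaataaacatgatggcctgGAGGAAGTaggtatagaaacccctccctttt
GAGGAAGT was found in the windows of Ly6c2 and Ly6g, and in 2.44% of all 32851 promoters of the table, while TATAAAT was found in those of Ly6c1 and Ly6g, and in 3.53% of all. Neither the STAT motif TTCNNNGAA, present in 7.02% of all promoters, nor the interferon response motif GAAANNGAAA, present in 2.98%, occurred in any of the 3 windows. Aligned bases were the same at 76.1% of positions between Ly6c1 and Ly6g and at 73.4% between Ly6c1 and Ly6c2. TATAAAT began 143 bases before the RefSeq start in Ly6c1 and 99 in Ly6g. GAGGAAGT began 108 bases before it in Ly6c2 and 31 in Ly6g. The Ly6g window ran past the GENCODE start of the gene (75155240). Such matches describe letters and not binding, and whether TATAAAT serves as a core promoter box here was not tested. Ly6a, Ly6e, Ly6i and Ly6d were not examined.

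After a filter of at least 500 molecular identifiers (UMIs), more than 200 and fewer than 6000 genes and under 5% mitochondrial UMIs, 8557 cells of the control IgG library (median 5526 UMIs) and 11269 of the anti-CD3L1 library (median 8267 UMIs) remained, sharing 26 cell barcodes. Cells were put into classes by marker genes that hold no Ly6 member, and 92.2% and 80.5% of cells received a class. The 4 classes compared below had 3 to 8 of their own markers and none of another class among their 10 leading genes, which is no independent check since these markers set the classes. Neutrophil-like cells made up 66.5% of the control IgG cells and 4.81% of the anti-CD3L1 cells, monocyte-like cells 16.5% and 24.3%, macrophage-like cells 6.42% and 35.2%, and NK-like cells 1.89% and 8.27%. Only these 4 classes had at least 50 cells in both libraries. A further 6 classes had at least 50 cells in the anti-CD3L1 library alone. Levels are in CPM, the UMIs of a gene per 1000000 UMIs of the class, with an exact Poisson 95% interval. Intervals cover counting error only. The classes differed in their leading clusters between the libraries: most control IgG monocyte-like cells were in cluster 0 and most anti-CD3L1 ones in clusters 1, 20 and 0, while macrophage-like cells were led by clusters 9 and 2 in control IgG and 3, 9 and 19 in anti-CD3L1. Neutrophil-like cells were led by clusters 6, 5 and 4 in control IgG and 6, 8 and 5 in anti-CD3L1. Clusters 1, 2 and 8 received no class name from their leading genes, which in cluster 1 were Dcstamp, Areg, Slc7a2 and Ccl24.

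Members differed in the classes where they were highest, and several shared the same class. Among the 4 compared classes of the control IgG library, Ly6e, Ly6c2, Ly6c1 and Ly6i were highest in monocyte-like cells, at 765 CPM (interval 752 to 778), 545, 302 and 26.3 CPM, and Ly6g was highest in neutrophil-like cells at 93.2 CPM. Ly6a, the Sca-1 gene, was highest among these 4 in NK-like cells at 48.1 CPM, ahead of monocyte-like cells at 32.1 CPM, and was close to absent from neutrophil-like cells at 0.430 CPM (14 UMIs in 5688 cells). Ly6d had 0 UMIs in all 4 compared classes of that library. In the same 4 classes of the anti-CD3L1 library Ly6a was highest in monocyte-like cells, at 281 CPM, and Ly6c2 was again highest there, at 1058 CPM. Among all 10 classes with at least 50 cells in that library, both were highest in plasmacytoid dendritic cell-like cells, interferon-producing cells of the dendritic lineage, at 439 and 1349 CPM. The 17 control IgG cells of that class were also above the monocyte-like cells of their library, with Ly6a at 230 CPM (170 to 304), Ly6c2 at 742 CPM (631 to 867) and Ly6c1 at 409 CPM.

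**Figure D1:**
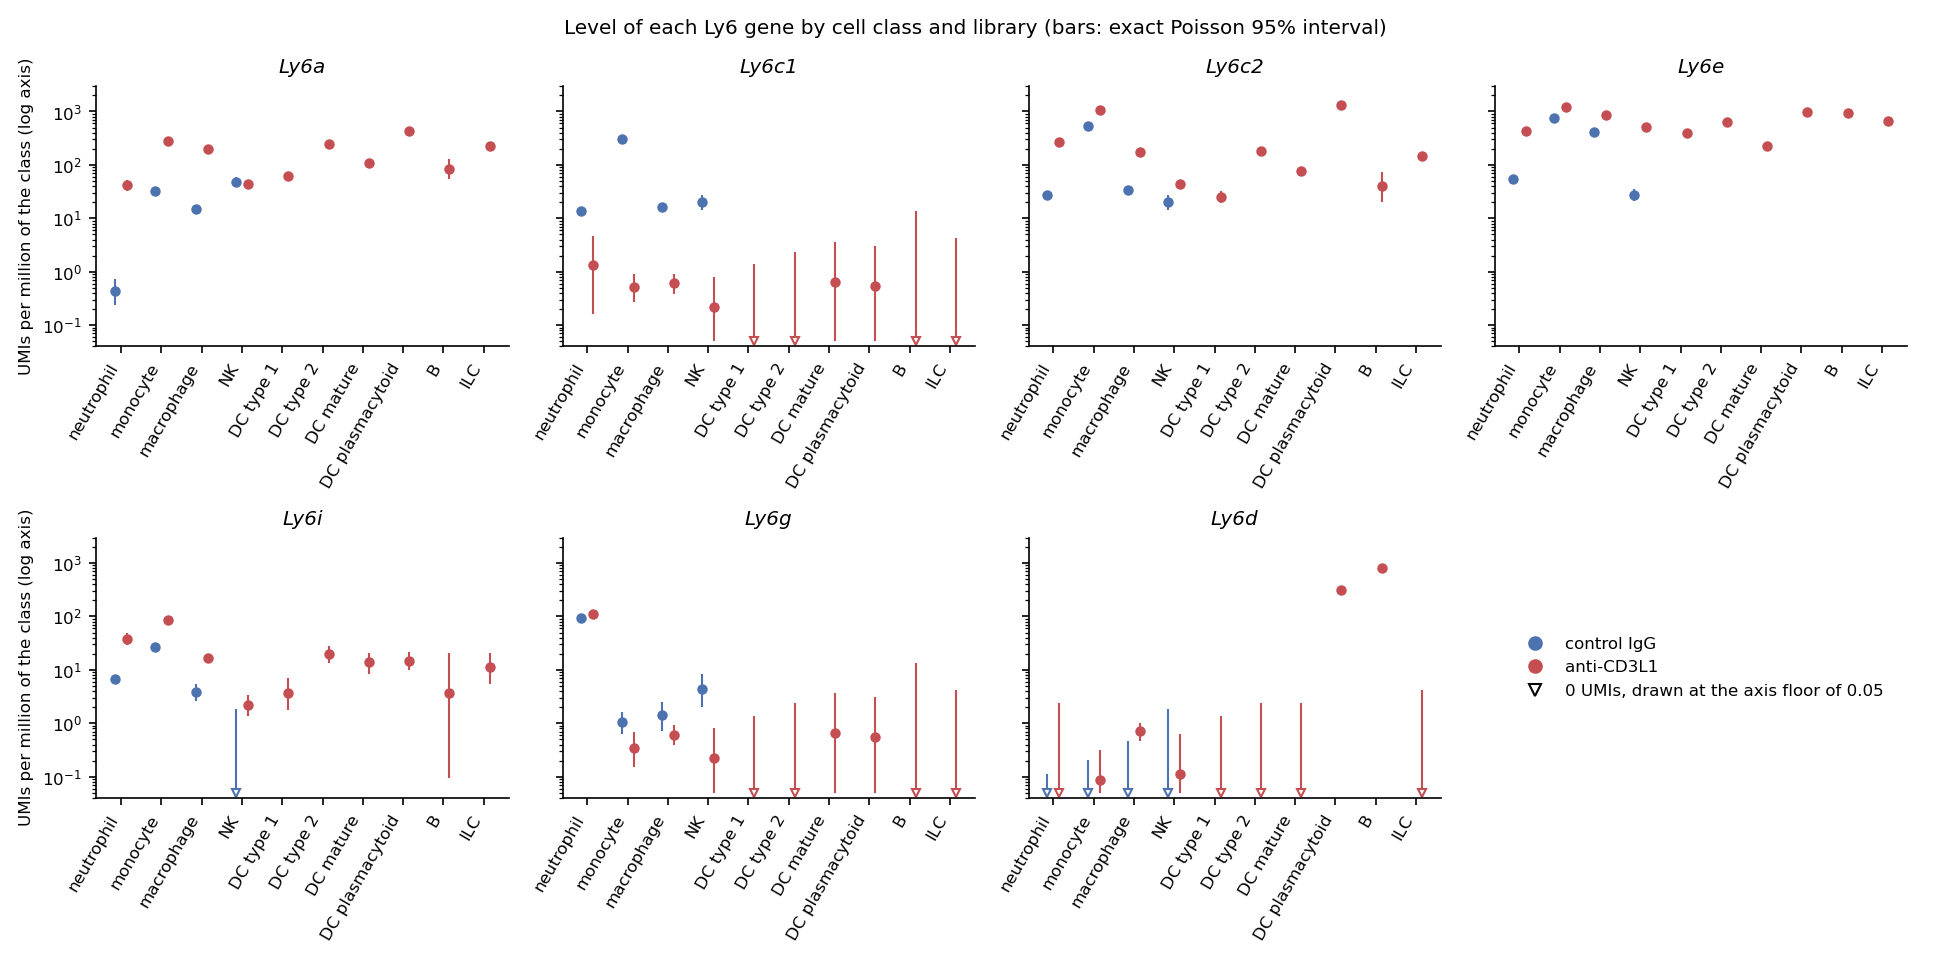
Level of each Ly6 gene in CPM of the class (vertical log axis) for each cell class (horizontal axis) with at least 50 cells, in the control IgG library (blue) and the anti-CD3L1 library (red). Bars are exact Poisson 95% intervals and open triangles mark 0 UMIs; Ly6c1 is at 302 CPM in monocyte-like cells of control IgG and at or under 1.32 CPM in every class of anti-CD3L1 drawn.

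For most members, neighbouring classes were separated by more than their counting intervals at the top of the order and not at the bottom. Ly6a in the anti-CD3L1 library was ordered as plasmacytoid dendritic cell-like (439 CPM), monocyte-like (281), type 2 dendritic cell-like (248), innate lymphoid cell-like (228) and macrophage-like cells (198). The innate lymphoid interval met those of the type 2 dendritic and macrophage values, which did not meet each other. Below these, mature dendritic cell-like (110), B cell-like (84.7) and type 1 dendritic cell-like cells (62.6) had intervals that met in turn, as did NK-like (44.8) and neutrophil-like cells (41.5). Ly6e was present in all 10 classes of that library, from 1208 CPM in monocyte-like to 228 CPM in mature dendritic cell-like cells. Next below monocyte-like cells were the plasmacytoid, B cell-like and macrophage-like values (995, 947 and 851 CPM). The B cell-like interval met the other ones, which did not meet each other. Ly6i, a close relative of Ly6a in sequence, was at 87.0 CPM in monocyte-like and 38.2 CPM in neutrophil-like cells, and at or under 19.8 CPM in the other 8 classes.

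Ly6c1, one of the genes of the monocyte antigen Ly6C, was lower in all 4 compared classes of anti-CD3L1. Its level was 302 CPM in monocyte-like cells of control IgG and 0.526 CPM in those of anti-CD3L1, from 5492 and 12 UMIs, which is 574-fold lower (log2 ratio −9.17, interval −10.12 to −8.36). The libraries came from different mice of a strain not given in the sources used here. Whether these mice carried the same Ly6c1 allele was not tested. Ly6c1 was counted in other cells of the anti-CD3L1 library, with 98 UMIs (162 CPM) in 32 fibroblast-like cells. Whether the low counts in the compared classes reflect a loss of RNA was not tested. Macrophage-like cells went from 16.6 to 0.611 CPM, 27.1-fold lower (log2 ratio −4.76, −5.46 to −4.13). Over the alternative settings this value ran from −6.94 with cells thinned to 1000 UMIs to −3.54 without cells that held markers of a second class. NK-like cells stood at 20.3 against 0.222 CPM, from 41 and 2 UMIs (−6.51, −9.61 to −4.57), and neutrophil-like cells at 13.8 against 1.32 CPM, from 448 and 2 UMIs (−3.39, −6.44 to −1.52, and −1.43 as a mean over cells). A value was called when it was at least 2-fold apart with an interval clear of equality and at least 20 UMIs in all, and Ly6c1 was called lower in 4 of 4 classes. Of 9700 genes that could be called in all 4 classes, 27 (0.278%) were lower and 24 (0.247%) higher in each. Ranked by the smallest fold over the classes, Ly6c1 was number 4 of the 27, after Saa3, a serum amyloid gene, Tpd52l1 and Mpp7.

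Plasmacytoid dendritic cell-like cells showed the same difference on few control cells. The 17 control IgG cells of this class held 87 Ly6c1 UMIs (409 CPM, 327 to 504), while the 200 anti-CD3L1 cells held 1 (0.551 CPM, 0.0140 to 3.07). In the anti-CD3L1 library no Ly6c1 UMI was found in type 1 dendritic cell-like, type 2 dendritic cell-like, innate lymphoid cell-like or B cell-like cells, and 1 in mature dendritic cell-like cells. Cells without a class had 73.1 and 0.572 CPM.

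Ly6c2, the other Ly6C gene, was higher in 3 of the 4 classes in which Ly6c1 was lower. It was at 26.9 CPM in control IgG and 265 CPM in anti-CD3L1 neutrophil-like cells, 9.83-fold higher (log2 ratio 3.30, 3.12 to 3.47). With free RNA subtracted, estimated at 0.85% of UMIs in control IgG and 0.71% in anti-CD3L1, this ratio was 3.34. Near-empty barcodes had 117 and 373 CPM. Macrophage-like cells had 34.6 and 177 CPM, 5.13-fold higher (2.36, 2.18 to 2.54). Within the macrophage-like cluster 3, which led this class in anti-CD3L1, Ly6c2 was not called, at 343 and 377 CPM (0.13, −0.01 to 0.28). Within cluster 9, which led it in control IgG, Ly6c2 was called higher, at 17.1 and 111 CPM (2.70, 2.33 to 3.10). NK-like cells had 20.3 and 44.5 CPM (1.13, 0.66 to 1.63), a call that was lost when ratios were scaled to the median gene of the class (0.98), while thinning to 1000 UMIs a cell gave 2.29, with a Ly6c2 UMI in 2 of 162 and 37 of 928 cells. In monocyte-like cells, where Ly6C is an identity antigen, the levels were 545 and 1058 CPM. The log2 ratio of 0.96 (0.92 to 0.99) stayed under 2-fold and was not called. Within the monocyte-like clusters 17 and 20 Ly6c2 was called higher, at 273 and 773 CPM and at 432 and 1032 CPM. Within the monocyte-like cluster 0 (581 and 975 CPM) and the unnamed cluster 1 (463 and 646 CPM) it was not called. Ly6c2 was thus present in monocyte-like cells of both libraries, with at least 1 UMI in 71.3% and 83.5% of cells, against 63.8% and 0.438% for Ly6c1. In NK-like cells, which lie outside the monocyte lineage, 8.02% and 12.2% of cells had a Ly6c2 UMI at median depths of 11064 and 8674 UMIs, against 12452 and 7907.5 in monocyte-like cells. Thinned to 1000 UMIs a cell, monocyte-like cells with a Ly6c2 UMI were 32.3% and 49.96%, and those with a Ly6c1 UMI 22.2% and 0%.

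The share of Ly6c1 among all UMIs of the pair takes out the depth and the level of the pair itself. In the control IgG library it was 33.8% (exact binomial interval 31.3 to 36.5) in neutrophil-like, 35.7% (34.9 to 36.4) in monocyte-like, 32.4% (27.8 to 37.3) in macrophage-like and 35.5% (29.5 to 41.9) in plasmacytoid dendritic cell-like cells. These 4 intervals overlapped, and the NK-like share of 50% (38.7 to 61.3), from 41 UMIs of each gene, lay above those of the neutrophil-like, monocyte-like and macrophage-like cells. Across anti-CD3L1 cells the share was 0.495%, 0.0497%, 0.343% and 0.0408% in the same order, and 0.498% in NK-like cells. Barcodes with 10 to 100 UMIs, which hold mainly RNA free in the suspension, gave 31.7% in control IgG and 2.29% in anti-CD3L1. After the profile of these barcodes was subtracted, Ly6c1 was still more than 2-fold lower in neutrophil-like cells (log2 ratio at most −2.75) and in NK-like cells. No interval was computed for that setting, so no call was made.

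**Figure D2:**
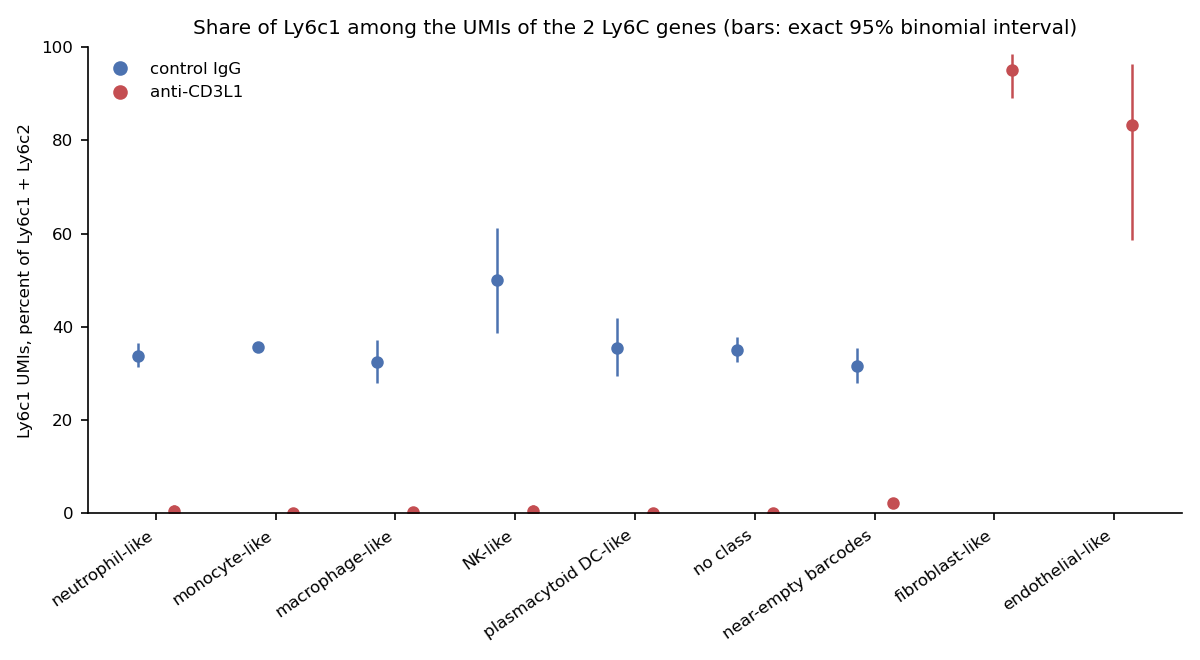
Ly6c1 UMIs as a percent of Ly6c1 plus Ly6c2 UMIs (vertical axis) by cell class, for control IgG (blue) and anti-CD3L1 (red), with exact 95% binomial intervals and at least 10 UMIs of the pair per point. The immune classes drawn lie between 32.4% and 50% in control IgG and at or under 0.498% in anti-CD3L1. Near-empty barcodes lie at 31.7% in control IgG and 2.29% in anti-CD3L1. The fibroblast-like and endothelial cell-like cells of anti-CD3L1 lie at 95.1% and 83.3%.

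In single monocyte-like cells the pair was found together in the control IgG library and almost never in the other. In control IgG, the percent of cells with a Ly6c1 UMI climbed with the Ly6c2 UMIs of the cell, from 17.98% of 406 cells without Ly6c2 to 52.7% at 1 to 2 UMIs, 85.8% at 3 to 5, 95.1% at 6 to 10, 98.1% at 11 to 20 and 100% of 140 cells at 21 or more. In anti-CD3L1 it was 0 of 453 cells without Ly6c2 and 0.203%, 0.205%, 0.201%, 0.415% and 2.12% in the same steps, the last from 7 of 330 cells. Deeper cells hold more UMIs of both genes, and the part of depth in this climb was not tested. At equal Ly6c2 UMIs the 2 libraries did not meet in any step. Cells with at least 21 Ly6c2 UMIs carried 18.3 Ly6c1 UMIs each in control IgG and 0.0212 in anti-CD3L1, at 34.1 and 31.9 Ly6c2 UMIs each.

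**Figure D3:**
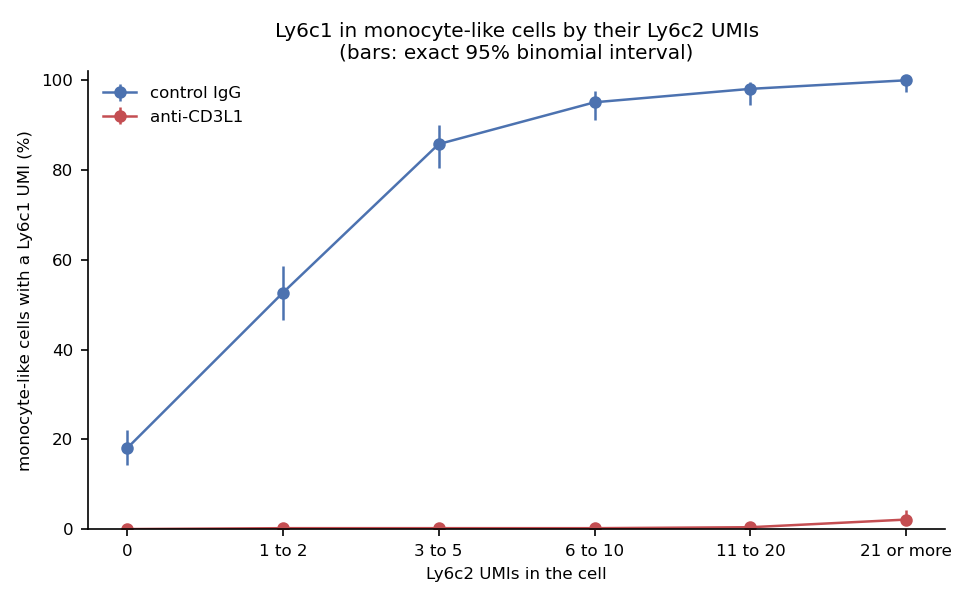
Percent of monocyte-like cells with at least 1 Ly6c1 UMI (vertical axis) by the Ly6c2 UMIs counted in the same cell (horizontal axis), for control IgG (blue) and anti-CD3L1 (red), with exact 95% binomial intervals. The control IgG line climbs from 17.98% to 100% and the anti-CD3L1 line stays at or under 2.12%.

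Ly6a, the stem cell antigen Sca-1, was higher in the 3 myeloid classes of anti-CD3L1 and not in NK-like cells. It was at 32.1 CPM in control IgG and 281 CPM in anti-CD3L1 monocyte-like cells, 8.76-fold higher (log2 ratio 3.13, 3.01 to 3.26), and at 14.7 and 198 CPM in macrophage-like cells, 13.5-fold higher (3.76, 3.49 to 4.04). Within the monocyte-like cluster 0 it was 4.15-fold higher, at 22.5 and 93.3 CPM. Clusters 17 and 20 had 5.74 and 193 CPM, and 16.2 and 232 CPM. The percent of monocyte-like cells with a Ly6a UMI was 8.13% and 45.3%, and 2.19% and 18.01% when cells were thinned to 1000 UMIs. Neutrophil-like cells gave 0.430 and 41.5 CPM, a 96.4-fold difference (6.59, 5.74 to 7.54) that rested on 14 and 63 UMIs. Clusters 6, 8 and 5 led this class in anti-CD3L1. They held 10, 1 and 4 Ly6a UMIs there and 3, 0 and 9 in control IgG, too few to be called. Most of the 63 UMIs thus lay outside these clusters. Near-empty barcodes carried Ly6a at 7.41 CPM in control IgG and 172 CPM in anti-CD3L1, and the 10 macrophage markers summed to 155 CPM in control IgG and 933 CPM in anti-CD3L1 neutrophil-like cells, with all 10 detected in both. The log2 ratio was 6.77 with the free RNA profile subtracted and 5.87 without the cells that also held markers of a second class. NK-like cells were not called, at 48.1 and 44.8 CPM (−0.10, −0.42 to 0.23, and −0.57 to 0.42 over the alternative settings). Innate lymphoid cell-like cells, of which control IgG had only 21, had 321 and 228 CPM, and the 13 mature dendritic cell-like cells of control IgG had 259 CPM against 110 CPM.

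Ly6e, an interferon-inducible member found on many cell types, was higher in lymphoid and neutrophil-like cells of anti-CD3L1 and under 2-fold apart in monocyte-like cells. NK-like cells had 27.7 CPM in control IgG and 505 CPM in anti-CD3L1, 18.2-fold higher (log2 ratio 4.19, 3.81 to 4.59), and 13.6% and 85.8% of them had a UMI. After thinning to 1000 UMIs a cell these percents were 3.70% and 36.0%. In neutrophil-like cells the levels were 55.3 and 434 CPM (2.97, 2.84 to 3.10). Near-empty barcodes had 299 and 825 CPM, above both classes, and with their profile subtracted the log2 ratios were 4.31 in NK-like and 3.02 in neutrophil-like cells. In macrophage-like cells the levels were 411 and 851 CPM (2.07-fold, log2 ratio 1.05), just past 2-fold, and under it with classes from clustering (0.91), with cells thinned (0.78) and as a mean over cells (0.88). Within the macrophage-like cluster 3 Ly6e was not called, at 960 and 952 CPM (−0.01). Within cluster 9 it was called higher, at 323 and 1117 CPM (1.79). Monocyte-like cells had 765 and 1208 CPM (0.66, 0.63 to 0.69) and were not called. Within the monocyte-like cluster 17 Ly6e was called higher (1.24), and within clusters 0 and 20 it was not (0.49 and 0.74). The small control classes had 12.9 CPM (2 UMIs) against 678 CPM in innate lymphoid cell-like cells, 196 (12 UMIs) against 947 CPM in B cell-like cells and 507 against 995 CPM in plasmacytoid dendritic cell-like cells.

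Ly6i, a monocyte-expressed member, was higher in the 3 myeloid classes of anti-CD3L1. Its levels were 26.3 and 87.0 CPM in monocyte-like cells (log2 ratio 1.72, 1.58 to 1.87), 3.86 and 16.5 CPM in macrophage-like cells (2.09, 1.57 to 2.67) and 6.88 and 38.2 CPM in neutrophil-like cells (2.47, 2.03 to 2.89). The neutrophil-like value was 1.73 with classes from clustering and 1.88 when scaled to the median gene of the class, both still past 2-fold. Within cluster 6 Ly6i was called higher (48 and 13 UMIs, 2.02) and within cluster 5 it was not (21 and 1 UMIs, 0.50). Cluster 8 had 0 and 6 UMIs, too few to be called. Within the macrophage-like cluster 3 Ly6i was not called, at 12.9 and 23.8 CPM (0.89). Within cluster 9 it was called higher, at 1.93 and 8.95 CPM (2.21). NK-like cells had 0 and 20 UMIs, at least 1.496-fold higher against the limit of 3 UMIs for a count of 0, and were not called. Within the NK-like cluster 12 Ly6i was called higher, with 0 and 45 UMIs (at least 3.11-fold).

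Ly6g, the neutrophil antigen, was not called in neutrophil-like cells, although these cells were 66.5% of control IgG and 4.81% of anti-CD3L1 cells. It was at 93.2 CPM in control IgG (3033 UMIs) and 109 CPM in anti-CD3L1 (165 UMIs), a log2 ratio of 0.22 (−0.01 to 0.45) that turned to −0.38 when scaled to the median gene of the class. Within cluster 6, which led this class in both libraries, Ly6g was called higher, at 48.8 and 101 CPM (2.07-fold, log2 ratio 1.05, 0.64 to 1.44), and within cluster 5 it was not called (0.45, 0.10 to 0.77). A Ly6g UMI was found in 21.2% and 12.9% of neutrophil-like cells, at median depths of 4526.5 and 2202.5 UMIs, and in 6.20% and 6.96% of those thinned to 1000 UMIs. In NK-like cells, which should lack the antigen, it was found in 3.09% and 0.215%. Over all cells the level was 46.3 and 2.29 CPM. Monocyte-like cells had 1.05 and 0.351 CPM (−1.58, −2.98 to −0.32) and macrophage-like cells 1.41 and 0.611 CPM (−1.21, −2.30 to −0.03), both called lower, on 19 and 8 UMIs and on 11 and 24 UMIs. The near-empty barcodes had 31.9 and 1.70 CPM, and the 10 neutrophil markers summed to 551 and 276 CPM in monocyte-like and 503 and 114 CPM in macrophage-like cells, with all 10 detected. Both calls were fragile: the log2 ratio was −0.94 in macrophage-like cells with free RNA subtracted and −0.66 in monocyte-like cells with classes from clustering, each under 2-fold.

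Ly6d, the B-lineage member, was confined among the classes of at least 50 cells to B cell-like and plasmacytoid dendritic cell-like cells, apart from traces of at most 0.713 CPM in macrophage-like, NK-like and monocyte-like cells. B cell-like cells of anti-CD3L1 held 219 UMIs (807 CPM, 703 to 921) in 57 cells, and plasmacytoid dendritic cell-like cells 555 UMIs (306 CPM, 281 to 332) in 200 cells. The control IgG library had 3 UMIs in 7 B cell-like cells (49.1 CPM, 10.1 to 143) and 37 UMIs in 17 plasmacytoid dendritic cell-like cells (174 CPM, 122 to 239). The log2 ratio in B cell-like cells was 4.04 (2.47 to 6.33) and rested on 7 control cells.

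Counted over members, 4 of 6 that could be called were higher and 1 lower in neutrophil-like cells of anti-CD3L1, where 22.3% of 11389 genes were higher and 1.98% lower. In monocyte-like cells 2 of 6 were higher (Ly6a and Ly6i) and 2 lower (Ly6c1 and Ly6g), beside 9.3% and 3.0% of 13515 genes. In macrophage-like cells 4 of 7 were higher and 2 lower, beside 4.52% and 4.33% of 14305 genes. In NK-like cells 2 of 5 were higher (Ly6e and Ly6c2) and 1 lower (Ly6c1), beside 4.58% and 2.28% of 11449 genes. Members were selected with these ratios known, so nothing is read from the counts. The median gene was itself shifted in the anti-CD3L1 library, by a log2 ratio of 0.60 in neutrophil-like, 0.21 in monocyte-like, 0.00 in macrophage-like and 0.15 in NK-like cells. With that shift taken out, called genes were 1001 higher and 711 lower in place of 2536 and 225 in neutrophil-like, 839 and 575 in place of 1257 and 406 in monocyte-like, and 333 and 349 in place of 524 and 261 in NK-like cells.

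**Figure D4:**
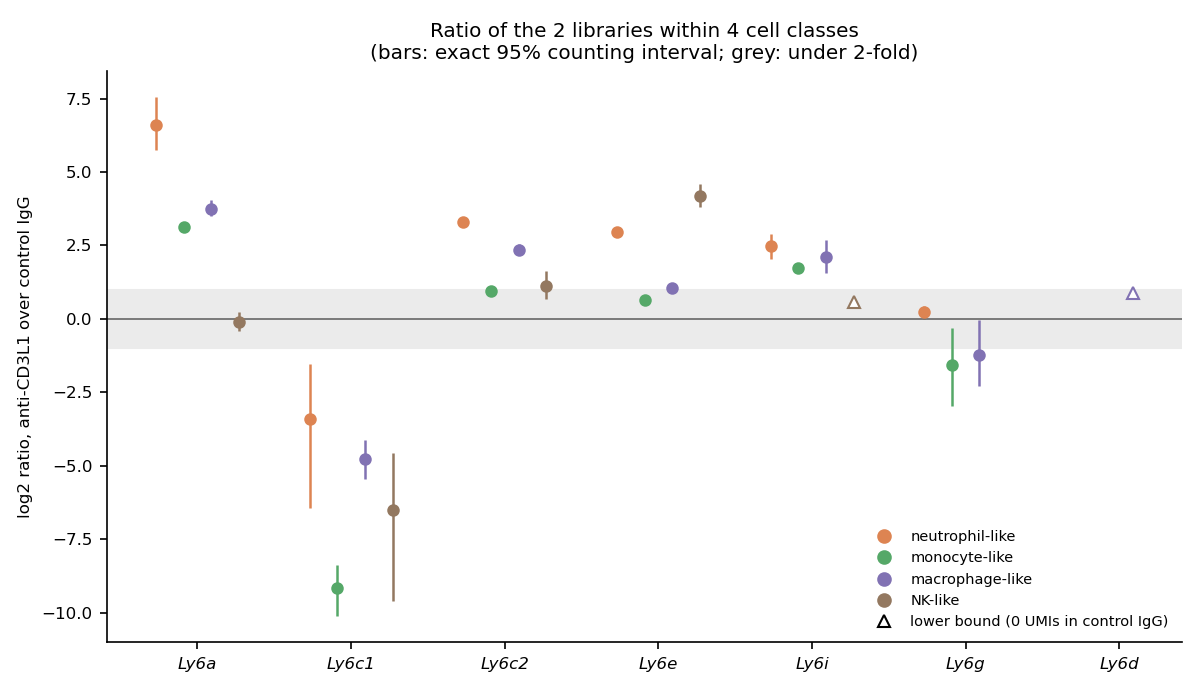
Log2 ratio between the libraries, positive where anti-CD3L1 is higher (vertical axis), for each member (horizontal axis) in neutrophil-like, monocyte-like, macrophage-like and NK-like cells, with exact 95% counting intervals, for members with at least 20 UMIs in the class. The grey band is under 2-fold; Ly6c1 lies below it in all 4 classes, from −3.39 to −9.17, and Ly6a above it in 3, from 3.13 to 6.59.

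The differences were also looked at within 12 clusters that had at least 50 cells in both libraries and were built without the Ly6 genes, since a class can hold other cells in each library. Ly6a was higher in 9 of the 9 clusters where it could be called, by log2 ratios of 1.04 to 5.07. Among these was the NK-like cluster 12 (38.4 and 78.8 CPM, 1.04), although Ly6a was not called in the NK-like class. None was a neutrophil-like cluster, since clusters 5 and 6, like the unnamed cluster 8, had too few Ly6a UMIs. Ly6c1 was lower in 8 of 10. It was not called in the neutrophil-like clusters 5 (172 and 0 UMIs, a log2 ratio of at most −0.95) and 6 (80 and 1 UMIs, −2.42, −7.74 to 0.10), so the call in the neutrophil-like class was not held within either. In the monocyte-like cluster 0, with 835 and 688 cells, it went from 3287 UMIs to 0 while Ly6c2 differed by a log2 ratio of 0.75. Ly6c2 was higher in 7 of 12 clusters, Ly6e in 6 of 12, Ly6i in 7 of 11 and Ly6g in 1 of 4, and none of these members was called lower in a cluster. The share of all genes called within a cluster was not computed, so nothing is read from the counts of clusters. In cluster 18, led by the interferon-induced genes Ifit2, Ifit3, Cmpk2 and Rsad2, Ly6e was at 1947 and 1456 CPM, Ly6c2 at 1359 and 1243 CPM, Ly6a at 254 and 595 CPM and Ly6c1 at 775 and 1.14 CPM.

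Because interferons induce several members, the cells of each class were pooled over both libraries and split into tertiles by the summed level of 15 type I interferon response genes. In monocyte-like cells of control IgG, Ly6a was at 0.856, 14.4 and 120 CPM from the lowest to the highest tertile, and in anti-CD3L1 at 85.9, 218 and 479 CPM. In the middle tertile the interferon genes summed to 2328 CPM in control IgG and 2525 CPM in anti-CD3L1, beside Ly6a at 14.4 and 218 CPM. They summed to 650 and 901 CPM in the lowest tertile and to 9633 and 8795 CPM in the highest. Levels in the lowest and highest tertiles are therefore not compared at equal interferon gene levels. The part of interferon in the difference between the libraries was not tested. Ly6e was at 406, 778 and 1540 CPM and at 939, 1170 and 1428 CPM, so that the libraries were far apart in the lowest tertile and reversed in order in the highest. Ly6c2 behaved likewise without crossing, at 205, 502 and 1336 CPM and at 599, 987 and 1439 CPM. Ly6c1 climbed with the interferon genes in control IgG, at 118, 269 and 742 CPM, and had 0, 6 and 6 UMIs in anti-CD3L1. Ly6a also climbed over the tertiles of macrophage-like cells, at 2.998, 7.73 and 53.3 CPM in control IgG and 73.3, 175 and 337 CPM in anti-CD3L1. Cells in a tertile share their library, so these are values of 2 libraries.

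**Figure D5:**
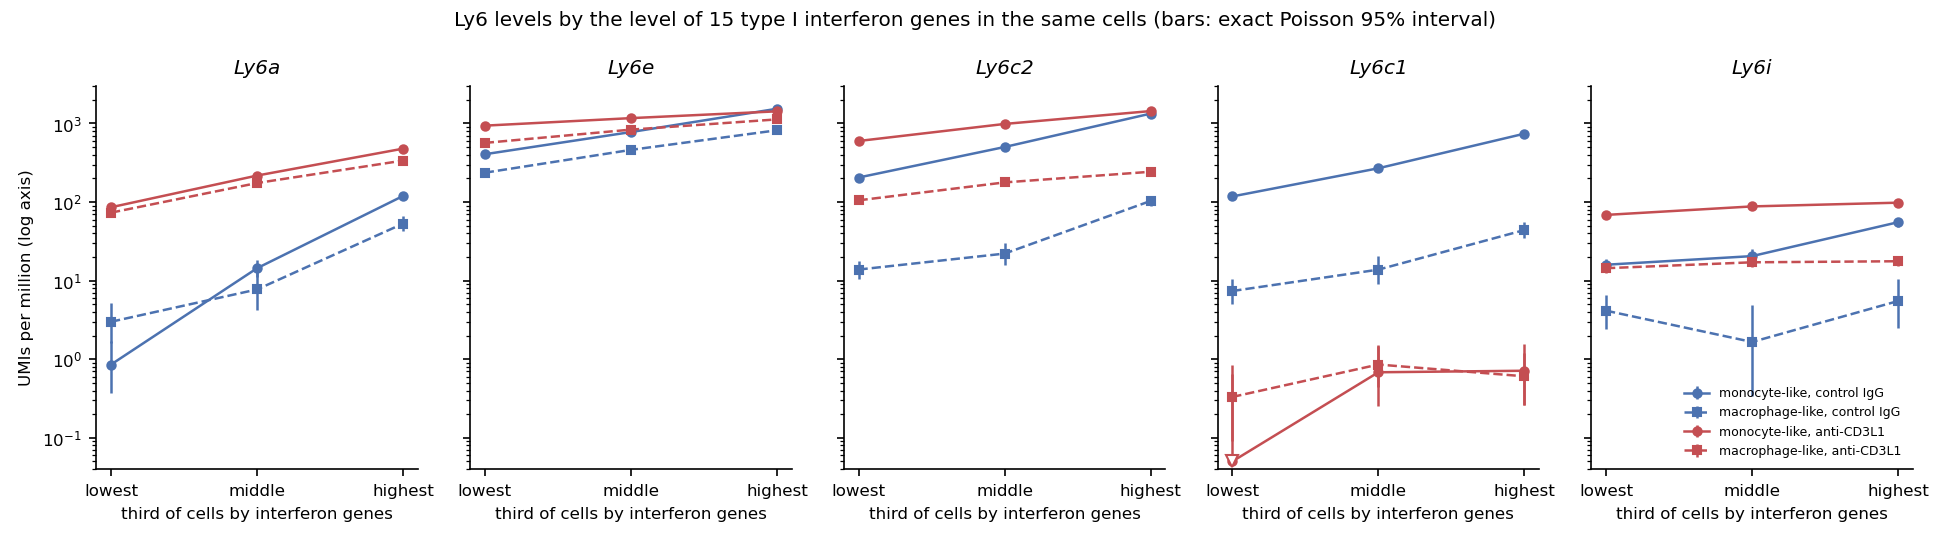
Level of 5 members in CPM (vertical log axis) in cells split into the lowest, middle and highest tertile by 15 type I interferon genes (horizontal axis), for monocyte-like (solid lines) and macrophage-like cells (dashed lines) of control IgG (blue) and anti-CD3L1 (red), with exact Poisson 95% intervals and an open triangle at 0 UMIs. Ly6a in monocyte-like cells climbs from 0.856 to 120 CPM in control IgG and from 85.9 to 479 CPM in anti-CD3L1.

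The type I interferon response genes themselves were called mainly in neutrophil-like cells. Of 15 type I interferon response genes, 11 were higher and none lower in neutrophil-like cells, beside 22.3% of all genes higher, among them Rsad2 at 354 and 1868 CPM, with a median log2 ratio of 1.67 beside 0.60 for all genes. In monocyte-like cells none was higher and Oas1a was lower (median 0.43 beside 0.21), in macrophage-like cells none was called (0.27 beside 0.00), and in NK-like cells 1 of 14, Oasl2, was higher (0.09 beside 0.15). Of 12 interferon-gamma response genes, 4 were higher in monocyte-like cells, including the chemokine gene Cxcl9 (24.4 and 133 CPM) and Irf1 (112 and 239 CPM), and 4 in macrophage-like cells, including Gbp2 (18.9 and 48.9 CPM), beside 9.3% and 4.52% of all genes. In neutrophil-like cells 3 of the 12 were higher, near the 22.3% of all genes, and in NK-like cells 2 were higher and 2 lower, Cxcl10 (259 and 116 CPM) and Gbp5 (100.1 and 42.5 CPM), beside 4.58% and 2.28% of all genes.

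Other genes of the Ly6 and uPAR superfamily were mostly silent in these cells. Their levels were taken only in classes with at least 50 cells in a library. Of 28 listed, 4 (Ly6l, Lypd2, Lypd8 and Tex101) had 0 UMIs there, and all others but Plaur and Psca stayed at or under 25.8 CPM. Plaur, the urokinase receptor gene, was the abundant one, at 473 and 562 CPM in neutrophil-like, 333 and 395 CPM in monocyte-like, 208 and 288 CPM in macrophage-like and 29.2 and 34.6 CPM in NK-like cells, and was called in none. Psca, the prostate stem cell antigen gene, was at 206 CPM in mature dendritic cell-like cells of anti-CD3L1 (314 UMIs). Ly6k was higher in monocyte-like cells (1 and 43 UMIs, log2 ratio 5.098) and macrophage-like cells (1 and 83 UMIs, 4.04). Lynx1 was higher in monocyte-like cells (6 and 24 UMIs) and Lypd6b lower there (47 and 11 UMIs). In neutrophil-like cells Lypd6b was at 16.0 and 22.4 CPM and was not called. Of 22 genes for making and attaching the GPI anchor, 5 of the 17 with enough UMIs were higher in neutrophil-like cells, 2 of 22 in monocyte-like cells and none in macrophage-like or NK-like cells, with none lower. All genes called higher were 22.3% in neutrophil-like and 9.3% in monocyte-like cells, so both counts were near the background.

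Genes with the most similar pattern were named by Pearson correlation of log2(CPM + 1) over the 14 combinations of class and library with at least 50 cells, of which 10 come from the anti-CD3L1 library, so the points share libraries and r is a description. Ly6d went with Iglc3, an immunoglobulin light chain gene (r = 0.994), Mzb1 and Mybpc2. Ly6g went with the neutrophil genes Ngp (0.983), Cxcr1 and Ceacam10. Ly6c1 went with Saa3 (0.896), Mpp7 and Tpd52l1, which were also the 3 genes ahead of it in the ranking over classes. Both lists come from the same 2 libraries, so their overlap is no independent check. Ly6c2 went with Adssl1 (0.917), Gm17021 and its own relative Ly6i (0.829), whereas its r with Ly6c1 was −0.03. Ly6a went with Poldip3 (0.913), Arhgap39 and Ppp2ca. Ly6e went with Slc25a28 (0.902), Arhgef10l and Snx30, and Ly6i with St3gal1 (0.891), Ccl6 and Ifi27l2a.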

How the data were processed

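For both libraries the files deposited by the authors hold UMI counts, 1 value for each gene and droplet barcode. The submitters' processing notes name GRCm39, Cell Ranger 7.1.0 and Seurat 5.1.0. A deposited table of the authors' own comparisons holds p-values, log2 fold changes and shares of cells, and was not used. The members and gene lists were chosen with earlier results of these data known. With 1 library per group no test was run. A cell took the class whose marker score was at least 1.25 times the next, with at least 3 markers. A level is the sum of a gene's UMIs over the cells of a class and library, relative to the sum over all genes. Ratios have exact binomial 95% intervals, levels exact Poisson ones, and a count of 0 was set at 3 UMIs for bounds. No doublet caller was run, and cells with markers of a second class were left out in an alternative. The share of free RNA (0.85% and 0.71% of UMIs) was estimated from S100a8 and S100a9 in 145 and 838 NK-like cells. The NK-like cells highest in these 2 genes were left out of the estimate. The cells kept held 1038 of 6523 UMIs of the 2 genes in control IgG NK-like cells and 82 of 730 in anti-CD3L1. Most of these UMIs were thus left out, and a larger share was not tried. Ratios with free RNA subtracted hold for this estimate only. Of 11 alternatives, 2 (a gate margin of 1.5 and shared barcodes left out) were chosen after seeing the data. Clusters (2000 variable genes, 30 components) left the members out. Named genes were the members, the 3 genes most correlated with each, and listed genes at 20 CPM or more in a compared class. Listed genes named without reaching that level there (Psca, Ly6k, Lynx1 and those at 0) were chosen after their values were seen. Scripts were tested on simulated data with scanpy 1.11.5, pandas 2.3.3, scipy 1.17.1, numpy 2.4.6 and matplotlib 3.10.9 under Python 3.11.15.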

Additional observations from a re-analysis of the deposited data

Results flagged for a closer look

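Ly6c1 gave a signal in cells outside every comparison, which were looked at after the values were seen. In the anti-CD3L1 library, where the immune classes had almost none, 32 fibroblast-like cells held 98 Ly6c1 UMIs, or 162 CPM (131 to 197), above the 4.94 CPM that a count of 0 allows. The 9 endothelial cell-like cells held 15 UMIs, or 136 CPM (76.3 to 225), above a limit of 27.3 CPM. Ly6c2 had 5 and 3 UMIs in the same cells (8.24 and 27.3 CPM), so Ly6c1 made up 95.1% (89.0 to 98.4) and 83.3% (58.6 to 96.4) of the pair. Ly6a was at 1058 and 536 CPM and Ly6e at 485 and 500 CPM there. All kept cells of that library together held 164 Ly6c1 UMIs. The control IgG library had 1 fibroblast-like cell and 0 endothelial cell-like cells, so the classes cannot be compared between libraries.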

How the results depend on the processing

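Over 25 member and class values and 11 alternatives, 270 ratios were recomputed. Of these, 211 lay within the interval of the main value and 59 moved further. Reversals were counted for called values only, and there were 0. Values that were not called did change sign under some alternatives. These were Ly6g in neutrophil-like cells (0.22, down to −0.38), Ly6a in NK-like cells (−0.10, up to 0.42), and the bounds of Ly6i in NK-like (0.58, down to −0.68) and Ly6d in macrophage-like cells (0.89, down to −0.32). The highest value of Ly6i in NK-like cells was 1.65, past 2-fold. With classes from clustering, the log2 ratio of Ly6g in neutrophil-like cells was 0.68 and that of Ly6e in monocyte-like cells 0.88. With scaling by the median ratio of the class they were −0.38 and 0.45, and Ly6i, Ly6a and Ly6c2 in monocyte-like cells were 1.52, 2.92 and 0.75. As a mean over cells, monocyte-like values were 0.60 for Ly6e, 1.52 for Ly6i, 2.77 for Ly6a and 0.91 for Ly6c2. With every cell thinned to 1000 UMIs, they were 2.96 for Ly6a, 0.81 for Ly6c2 and at most −8.33 for Ly6c1, and Ly6d in B cell-like cells was at least 1.41. With cells holding markers of a second class left out, Ly6a and Ly6c2 were 2.71 and 0.91. The cause of these shifts was not tested.

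Across the alternatives 7 values crossed 2-fold, with bounds not counted. These were Ly6e in macrophage-like cells under 3 of them and Ly6c2 in NK-like cells under scaling. Ly6g crossed in macrophage-like cells under 2 (−0.94 with free RNA subtracted and −0.96 as a mean over cells). In monocyte-like cells Ly6g crossed with classes from clustering (−0.66). Ly6c1 ranged from −4.39 to −1.43 in neutrophil-like cells, with bounds of at most −2.75 after free RNA was subtracted and at most −0.96 after thinning, and Ly6a from 5.31 to 6.77 there, while Ly6a, Ly6c2 and Ly6i in macrophage-like cells ranged from 2.85 to 4.004, 1.40 to 2.81 and 1.85 to 3.11, and Ly6e in NK-like cells from 3.51 to 5.44. No paired analysis was possible because each group has 1 library and the labels give no replicate numbers. Counting error is the only error shown, and 3 or fewer UMIs in a class, as for Ly6c1 in neutrophil-like and NK-like cells of anti-CD3L1, give wide intervals.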

Other observations

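Genes around the Ly6 group were counted after the data were seen. Of 77 genes annotated within 1 Mb of Ly6c1, 48 were in the count tables, and of those that could be called 3 of 10 were higher in neutrophil-like, 6 of 17 in monocyte-like, 3 of 19 in macrophage-like and 2 of 13 in NK-like cells of anti-CD3L1, while 1 was lower in monocyte-like and 1 in macrophage-like cells. Over all genes 22.3%, 9.3%, 4.52% and 4.58% were higher in these classes, in the same order. Lower were 3.0% of all genes in monocyte-like and 4.33% in macrophage-like cells. Of 9700 genes that could be called in all 4 classes, 24 (0.247%) were higher in each. Gm39556 was called higher in each of the 4 classes, at 0.461 and 56.6 CPM in neutrophil-like cells, 0.110 and 4.08 CPM in monocyte-like cells, 0 and 3.08 CPM in macrophage-like cells and 0 and 3.56 CPM in NK-like cells.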
